A study of Mus musculus with 6 samples.

Results

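The 35 genes described here are the kinases, adaptors and binding partners of the Hippo pathway, the coactivators Yap1 and Wwtr1, the TEAD transcription factors with their Vgll cofactors, and a set of YAP and TEAD target genes. They were chosen by name, with Ccn1 and Ccn2 also matched under their older symbols Cyr61 and Ctgf. Each of the 35 matched 1 of the 55401 gene identifiers in the count tables. The study compared primary cholangiocytes, the bile duct epithelium, taken from mice with polycystic liver disease (PLD) and from wild-type (WT) mice, 3 months after tamoxifen, with 3 polyadenylated RNA libraries in each group. The labels name neither the gene altered in the PLD mice nor the cells in which tamoxifen acted, and do not say whether WT mice carried any of the same alleles. Biliary trees were freed of parenchymal cells by collagenase perfusion, digested to single cells, and sorted on magnetic beads by an antibody to EpCAM, an epithelial surface protein. Library totals ran from 15768561 to 16710548 counted reads. Whether each library had its own animal is not stated in the labels. The p-values therefore rest on the variation among these 3 libraries a group, and this may be technical variation.

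Hippo signalling restrains tissue growth through a kinase relay: the STK3 and STK4 kinases with the scaffold SAV1 activate LATS kinases and their MOB1 cofactors, and LATS kinases phosphorylate YAP and TAZ (encoded by Yap1 and Wwtr1) so that they stay out of the nucleus. Unphosphorylated YAP and TAZ bind TEAD factors on DNA and raise the transcription of genes such as Ccn1, Ccn2 and Ankrd1. Several pathway inhibitors, among them LATS2 and AMOTL2, are themselves made from YAP target genes. In the liver the pathway is known for controlling organ size and the bile duct fate of epithelial cells. RNA levels do not report phosphorylation or the nuclear location of YAP and TAZ.

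The preparations differed in cell type markers, and these values stand beside every result that follows. Levels are given as CPM, the reads of a gene scaled by library total and TMM factor. Epcam itself had 919 to 1363 CPM in PLD and 254 to 417 CPM in WT libraries, a log2 fold change of 1.61. All 25 cholangiocyte markers were tested, 19 rising and 3 falling with a median log2 fold change of 1.57, and their summed level was 38396 to 52376 CPM in PLD and 12983 to 17524 CPM in WT libraries. The 23 endothelial markers all fell, with a median of -3.33, and summed to 812 to 1379.9 CPM in PLD and 10138 to 12927 CPM in WT libraries. Of 24 fibroblast and stellate markers 19 fell and 1 rose, with a median of -1.57 and sums of 2640.4 to 6234 CPM in PLD and 10801 to 16969 CPM in WT libraries. Among 19 hepatocyte markers 4 rose and 9 fell, among 15 macrophage markers 2 rose and 3 fell, and among 9 mesothelial markers, which include Krt19, 4 rose and 4 fell. Hepatocyte markers summed to 3553 to 7722 CPM in PLD and 1924 to 3127 CPM in WT libraries, although their median log2 fold change was -0.66. No endothelial or fibroblast marker was at 0 reads in any library, and at most 1 cholangiocyte marker was. Pecam1, an endothelial adhesion gene, averaged 77.9 ± 16.8 CPM in PLD, against 937 ± 129 CPM in WT libraries (SD, n = 3 each). The part that these shifts in cell markers have in the values of the Hippo genes was not tested, and fewer cells of a type cannot be told apart from less RNA per cell.

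Promoter sequence is shown first because many of the 35 genes, among them genes that did not fall, share short letters there. RefSeq (GRCm38.p6, the assembly that mm10 names) gave windows of 250 bases before to 50 bases after a start for 27 of the 35 genes, 32 windows in all. Windows of Arhgef17, Asap1, Ccn2, Dock5, Nuak2, Stk3, Tead1 and Tead4 were not analysed here. The windows were searched for GGAATG, the core of the site that TEAD factors bind, and on the other strand for its complement CATTCC. These letters stood in 16 of the 27 genes (59.3%), against 16.6% of the 27025 genes in the table. Counted by window they stood in 18 of 32 (56.2%), against 14.7% of all 32851 windows. The 35 genes were chosen by name and include YAP and TEAD targets, so these shares cannot be told apart from that choice. Among the genes with a window that fell in PLD, by the test given below, 12 of 15 held the letters, as did 1 of 7 that rose and 3 of 5 that did not pass. Across all tested genes with a window the same shares were 16.5% of those that fell, 13.8% of those that rose and 14.6% of those that did not pass. A match is only a match of letters and does not show that a TEAD factor binds there.

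The stretches below are the 250 bases before the start, 5′ to 3′ on the gene's own strand, of 5 genes that fell. Each was chosen because its stretch holds the core and lies outside annotated exons. Sav1 met the same terms and is not shown, with its core 106 bases before the start. The Lats2 stretches also lie outside exons but lack the core, the only match beginning at base 5 after a start. The stretches printed here show where the core stands in each, and capitals mark GGAATG or its complement.
Ccn1 (chr3:145649986-145650235, minus strand): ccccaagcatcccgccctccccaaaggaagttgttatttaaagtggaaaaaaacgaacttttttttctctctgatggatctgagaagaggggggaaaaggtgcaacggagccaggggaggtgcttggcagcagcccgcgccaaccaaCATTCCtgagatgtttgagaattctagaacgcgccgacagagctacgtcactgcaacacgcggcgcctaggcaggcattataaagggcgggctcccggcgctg
Vgll3 (chr16:65814939-65815188, plus strand): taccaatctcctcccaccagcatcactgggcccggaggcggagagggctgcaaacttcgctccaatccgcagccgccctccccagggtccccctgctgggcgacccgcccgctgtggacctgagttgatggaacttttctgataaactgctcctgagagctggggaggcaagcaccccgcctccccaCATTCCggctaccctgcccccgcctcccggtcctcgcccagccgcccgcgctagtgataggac
Axl (chr7:25788734-25788983, minus strand): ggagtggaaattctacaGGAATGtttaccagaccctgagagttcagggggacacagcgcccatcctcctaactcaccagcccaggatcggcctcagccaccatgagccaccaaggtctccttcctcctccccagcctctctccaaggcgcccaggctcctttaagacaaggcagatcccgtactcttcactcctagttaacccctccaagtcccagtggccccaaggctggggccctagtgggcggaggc
Ptpn14 (chr1:189728018-189728267, plus strand): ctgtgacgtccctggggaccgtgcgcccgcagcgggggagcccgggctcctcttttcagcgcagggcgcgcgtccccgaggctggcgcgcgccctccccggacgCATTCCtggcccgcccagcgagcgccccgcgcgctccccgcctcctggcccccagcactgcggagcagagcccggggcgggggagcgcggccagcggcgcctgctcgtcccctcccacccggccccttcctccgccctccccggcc
Wwtr1 (chr3:57575911-57576160, minus strand): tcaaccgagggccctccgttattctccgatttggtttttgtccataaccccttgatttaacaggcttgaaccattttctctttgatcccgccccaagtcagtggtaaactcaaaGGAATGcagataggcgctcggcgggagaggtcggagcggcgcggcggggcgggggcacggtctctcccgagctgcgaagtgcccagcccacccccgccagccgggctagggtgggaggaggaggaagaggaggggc
The core stands once in each of the 5 stretches, which were chosen for holding it. Among them the core lies nearest the start in Vgll3 (63 bases before it) and farthest in Axl (233 bases before it). The TEAD core lies 103 bases before the start of Ccn1, 136 before that of Wwtr1 and 146 before that of Ptpn14. Ankrd1 held it at 210 and 123 bases before its start, Yap1 at 141 and Amotl2 at 65. Genes that did not fall held it too. Mob1a, which rose, had it at 209 bases before its start. Of those that did not pass, Ajuba had it at 186 and 164, Vgll4 at 82 and Wwc2 at 203, 94 and 79.

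The core letters of AP-1 sites, TGANTCA, where N is any base and the motif reads the same on both strands, stood in 1 of the 27 genes (3.70%), against 8.97% of all genes in the table. That gene was F3, which rose in PLD and lacked the TEAD core in its window. Its 2 matches are shown in capitals in the 30 bases that hold them, on the plus strand.
F3 (chr3:121723385-121723414, plus strand): cgctgtTGAATCAcggtTGAGTCAcccctt

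**Figure D1:**
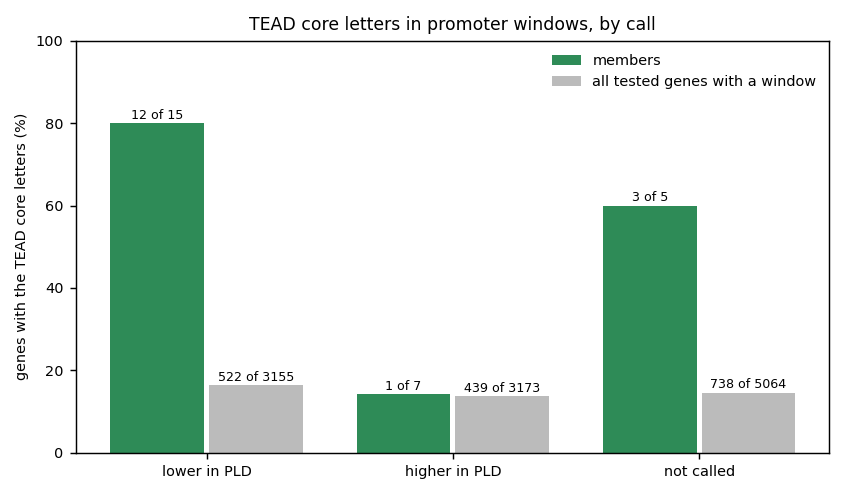
Percent of genes whose RefSeq promoter window holds the TEAD core letters on either strand (vertical axis), by call in PLD against WT. Green bars are the Hippo pathway and YAP target genes and grey bars all tested genes with a window, with counts above. The letters stood in 12 of 15 members that fell, 1 of 7 that rose and 3 of 5 that did not pass. The shares among all tested genes with a window were 16.5%, 13.8% and 14.6%.

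Most of the 35 genes changed, and more fell than rose. All 35 passed the filter on low counts. By edgeR's quasi-likelihood test, with p-values adjusted by Benjamini-Hochberg over all 15334 tested genes and a threshold of 0.05, 9 rose, 20 fell and 6 did not pass in PLD against WT. Such calls were common in these libraries: 55.4% of all tested genes passed, 27.0% rising and 28.4% falling. The median log2 fold change of the 35 was -0.54, against 0.01 for all tested genes. For 29 of the 35 the 3 PLD values lay all above (9 genes) or all below (20 genes) the 3 WT values. Among all tested genes this held for 66.2%, with 33.0% above and 33.2% below. Of the genes that fell, 12 had a log2 fold change of -1 or less, and of those that rose, 3 had 1 or more. Among all 15334 tested genes, 2911 had -1 or less and 1533 had 1 or more. The 35 were well expressed, with mean levels between the 52.7th and the 99.5th percentile of the tested genes. They were also long, 27 of them longer than the median tested gene, and log2 fold changes ran with length: the median of all tested genes was 0.35 up to 2 kilobases of exon and -0.26 above 8 kilobases. The medians of the 35 lay below those of all tested genes in each of the 4 length classes, at -0.65 (1 gene), -0.54 (7 genes), -0.40 (17 genes) and -0.35 (10 genes) from the shortest to the longest. With the length trend removed, the median of the 35 was -0.31.

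**Figure D2:**
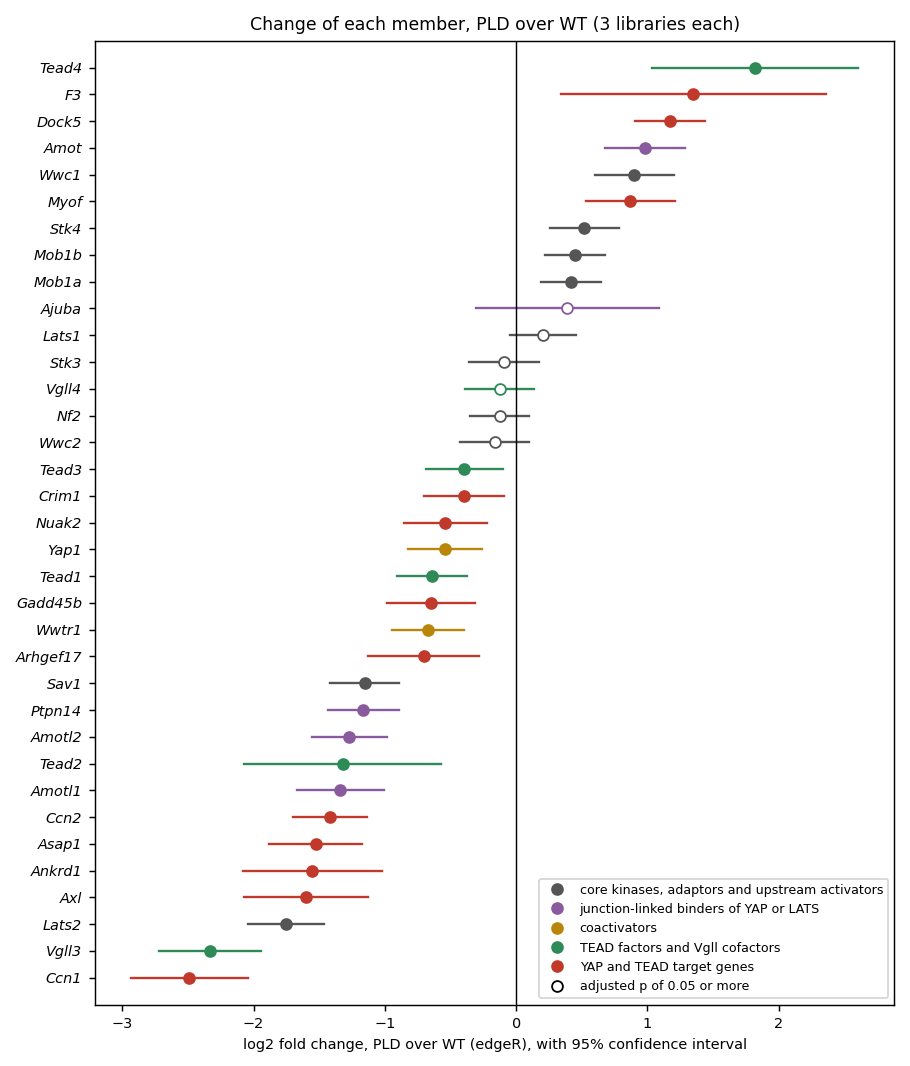
Log2 fold change, PLD over WT, of each of the 35 genes (horizontal axis), with 95% confidence intervals from edgeR on 3 libraries per group. Colours give the role and open points the 6 genes that did not pass. Values run from 1.82 for Tead4 to -2.49 for Ccn1.

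The core kinases, adaptors and upstream activators went in both directions, 4 of 10 rising, 2 falling and 4 not passing, with a median log2 fold change of 0.05. Of all tested genes 27.0% rose and 28.4% fell. Lats2, which encodes a kinase that phosphorylates YAP and TAZ (ENSMUSG00000021959.16, mm10 chromosome 14, 57689662 to 57758388), had 18.6, 24.7 and 22.3 CPM in the PLD libraries, against 72.5, 74.9 and 73.6 CPM in the WT libraries. Every PLD library lay far below every WT library, and the WT libraries were close to each other. The log2 fold change of Lats2 was -1.75 ± 0.12, where the error is a standard error (SE), and the gene was 3.37-fold lower in PLD (edgeR adjusted p = 6.33e-05). Its paralog Lats1 had 125, 126 and 132 CPM in PLD and 107, 101 and 126 CPM in WT libraries. The Lats1 values of the groups overlapped, and its log2 fold change of 0.20 did not pass (95% confidence interval -0.05 to 0.45).

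Sav1, the scaffold that joins the STK3 and STK4 kinases to LATS, was the other gene of this group that fell. It had 21.2, 21.3 and 25.4 CPM in PLD and 48.1, 52.4 and 50.9 CPM in WT libraries, a log2 fold change of -1.15 ± 0.11 SE (edgeR adjusted p = 1.97e-04). Of the upstream kinases, Stk4 had 59.1, 48.2 and 54.5 CPM in PLD and 38.8, 39.0 and 35.0 CPM in WT libraries, with no overlap. Stk4 rose by 0.52 ± 0.11 SE on the log2 scale, whereas Stk3 had overlapping values, with a log2 fold change of -0.09 (95% confidence interval -0.36 to 0.18). The genes of the MOB1 cofactors of LATS moved alike: Mob1a rose by 0.42 ± 0.10 SE and Mob1b by 0.45 ± 0.10 SE. Wwc1, which encodes the upstream activator KIBRA, was the largest riser among them. It had 391.1, 386 and 391 CPM in PLD and 239, 178 and 209 CPM in WT libraries, a log2 fold change of 0.90 ± 0.13 SE (edgeR adjusted p = 9.40e-04). The PLD libraries were nearly equal for Wwc1 while the WT libraries spread more widely. Its paralog Wwc2 (-0.16, 95% confidence interval -0.42 to 0.09) and Nf2 (-0.13, -0.35 to 0.10), which encodes the upstream regulator merlin, did not pass.

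The proportions of paralogs within this group were compared for 3 pairs. Per kilobase of exon, Lats2 stood to Lats1 as 0.155, 0.205 and 0.176 in PLD and as 0.709, 0.777 and 0.614 in WT libraries. The ratios did not overlap, and their mean differed by -1.97 on the log2 scale. Stk3 stood to Stk4 as 0.563, 0.819 and 0.759 in PLD and as 0.989, 1.04 and 1.22 in WT libraries, a difference of -0.61. The Mob1a to Mob1b ratio was 8.76, 8.77 and 8.67 in PLD and 8.84, 9.32 and 8.58 in WT libraries, a difference of -0.03. The two-sided exact permutation test over 6 libraries cannot give a p below 0.1, which it gave for Lats and for Stk (adjusted p = 0.167 over the 5 pairs compared), and p = 0.7 for Mob1. Lats2 shares 42.4% of its exonic bases with the gene model Gm49361, which had 0 reads, and Sav1 shares 25.4% with Atl1 on the opposite strand. Reads on shared exons are left out by the counting program's default, so the levels per kilobase of Lats2 and Sav1 may be too low. The reads lost in each library were not measured.

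Genes of proteins at cell junctions that bind YAP or LATS fell for 3 of 5, rose for 1 and did not pass for 1. Of all tested genes 28.4% fell and 27.0% rose. The angiomotins hold YAP and TAZ at junctions, and their 3 genes did not move together. Amot had 206, 219.8 and 272 CPM in PLD and 124, 108 and 121 CPM in WT libraries, and rose by 0.98 ± 0.13 SE on the log2 scale (edgeR adjusted p = 7.37e-04). Amotl1 had 73.3, 83.8 and 103 CPM in PLD and 199.5, 224 and 233 CPM in WT libraries, and fell by 1.34 ± 0.14 SE. Amotl2 had 69.4, 77.9 and 83.0 CPM in PLD and 201, 193 and 162 CPM in WT libraries, and fell by 1.27 ± 0.12 SE. No PLD value of these 3 genes overlapped a WT value, which was also so for 66.2% of all tested genes. Ptpn14, which encodes a phosphatase that binds YAP, had 129, 147 and 160.1 CPM in PLD and 325, 307 and 346 CPM in WT libraries. It fell by 1.16 ± 0.12 SE on the log2 scale (edgeR adjusted p = 2.20e-04). Ajuba, whose LIM domain product inhibits LATS kinases, had 26.1, 65.7 and 57.2 CPM in PLD and 38.5, 35.7 and 39.5 CPM in WT libraries. PLD replicate 1 lay below all WT libraries and the other PLD libraries above them, and the log2 fold change of 0.39 did not pass (edgeR adjusted p = 0.298). Without PLD replicate 1, Ajuba passed with 0.70 (edgeR adjusted p = 0.00147).

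Both coactivator genes fell modestly. Falls were called for 28.4% of all tested genes, and 66.2% had no overlap between the groups in either direction. Yap1 (ENSMUSG00000053110.13, mm10 chromosome 9, 7931999 to 8004596) had 146, 157 and 151 CPM in PLD and 187, 239 and 236 CPM in WT libraries. Wwtr1 (ENSMUSG00000027803.14, chromosome 3, 57455649 to 57575910) had 178, 166 and 183 CPM in PLD and 245, 311 and 282 CPM in WT libraries. Neither gene's values overlapped between the groups, and WT replicate 1 was the lowest WT library for each. Yap1 fell by 0.54 ± 0.12 SE and Wwtr1 by 0.67 ± 0.12 SE on the log2 scale (edgeR adjusted p = 0.00717 and 0.00244). The Yap1 call was lost when a trend with gene length was removed (-0.33, edgeR adjusted p = 0.0506), while that of Wwtr1 was not. Per kilobase of exon, Wwtr1 was the more abundant of the pair, with 36.8 ± 1.78 in PLD and 58.5 ± 6.97 in WT libraries, against 16.4 ± 0.589 and 23.8 ± 3.18 for Yap1 (CPM per kilobase, mean ± SD, n = 3 libraries each). The Yap1 to Wwtr1 ratio was 0.425, 0.488 and 0.427 in PLD and 0.393, 0.397 and 0.432 in WT libraries. These ratios overlapped, with a difference of 0.13 on the log2 scale (exact permutation p = 0.3, adjusted p = 0.375 over the 5 pairs).

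The 4 TEAD genes, which encode the DNA-binding partners of YAP and TAZ, divided into 1 that rose and 3 that fell. Of all tested genes 27.0% rose and 28.4% fell. Tead4 (ENSMUSG00000030353.15, mm10 chromosome 6, 128224288 to 128300823) had 70.7, 28.1 and 36.4 CPM in PLD and 10.9, 15.0 and 12.4 CPM in WT libraries. The groups did not overlap, and PLD replicate 1 stood apart as the highest. Tead4 was 3.53-fold higher in PLD, the largest rise of the 35, with a log2 fold change of 1.82 ± 0.34 SE (edgeR adjusted p = 0.00304), or 1.35 without PLD replicate 1. Tead1 had 124, 123 and 144 CPM in PLD and 182, 209.8 and 218 CPM in WT libraries, and fell by 0.64 ± 0.12 SE on the log2 scale. Tead2 had 6.54, 18.5 and 15.0 CPM in PLD and 33.6, 31.5 and 35.5 CPM in WT libraries, and fell by 1.32 ± 0.32 SE, or by 0.99 without PLD replicate 1. In PLD replicate 1, where Tead4 was highest, Tead2 was lowest. Tead3 had 41.6, 34.2 and 31.3 CPM in PLD and 45.7, 46.2 and 48.9 CPM in WT libraries. It fell by 0.40 ± 0.13 SE (edgeR adjusted p = 0.0295), a call lost after the length correction (adjusted p = 0.124) and without PLD replicate 2 or 3 or any of the 3 WT libraries (adjusted p between 0.0527 and 0.0996).

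The makeup of TEAD transcripts differed accordingly. Of the summed level of the 4 genes per kilobase of exon, Tead4 made up 54.1%, 30.2% and 35.5% in PLD and 9.97%, 12.6% and 10.1% in WT libraries. Tead1 made up 25.1%, 35.2% and 37.2% in PLD and 44.3%, 46.7% and 47.0% in WT libraries. By this measure Tead1 was the most abundant TEAD gene in all 3 WT libraries and in PLD replicates 2 and 3, and Tead4 was in PLD replicate 1. The shares depend on the length used, that of all annotated exons, 13570 bases for Tead1 and 3598 for Tead4. In CPM, Tead1 was above Tead4 in PLD replicate 1 too (124 against 70.7). The summed level itself was 36.3, 25.9 and 28.5 CPM per kilobase in PLD and 30.3, 33.1 and 34.2 in WT libraries, and these overlapped. The shares are given as a description with no test.

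**Figure D3:**
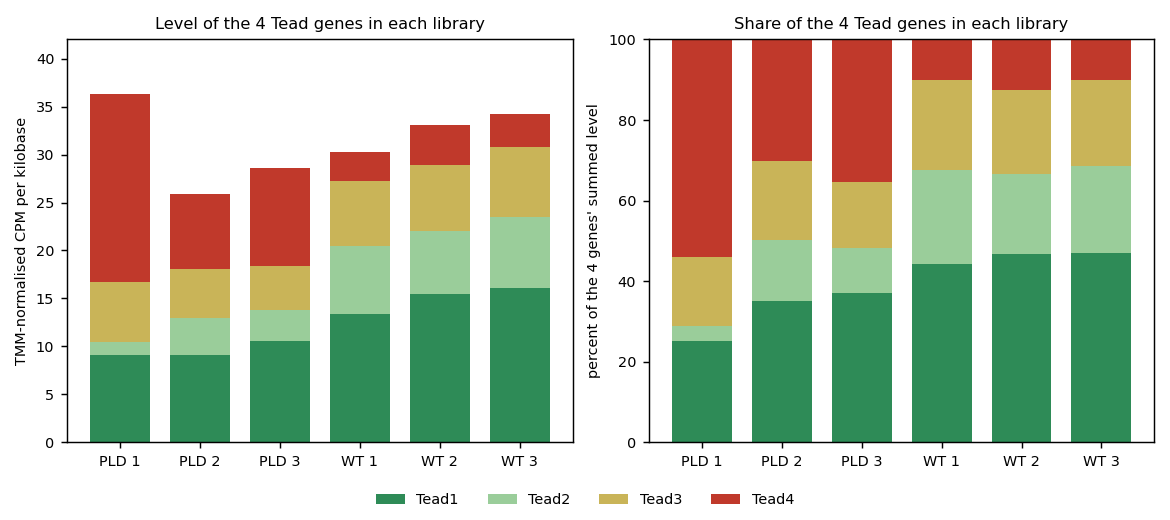
Stacked bars for each library, PLD on the left and WT on the right: level of the 4 Tead genes in TMM-normalised CPM per kilobase of exon (left panel) and their percent of the summed level (right panel). Tead4 (red) takes 30.2% to 54.1% in PLD and 9.97% to 12.6% in WT libraries.

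The Vgll cofactors, which bind TEAD factors in place of YAP and TAZ, differed from each other. Vgll3 (ENSMUSG00000091243.2, chromosome 16, 65815257 to 65866368) had 7.23, 8.91 and 8.35 CPM in PLD and 32.9, 46.1 and 44.7 CPM in WT libraries. It was 5.04-fold lower in PLD, a log2 fold change of -2.33 ± 0.17 SE (edgeR adjusted p = 6.33e-05), the second largest fall of the 35. Vgll4, which encodes a repressor that competes with YAP for TEAD factors, had overlapping values of 63.8, 67.5 and 66.2 CPM in PLD and 80.6, 62.1 and 72.7 CPM in WT libraries. Its log2 fold change of -0.13 did not pass (95% confidence interval -0.39 to 0.14). The endothelial and fibroblast medians, -3.33 and -1.57, lie on either side of the Vgll3 value. The same holds for Ccn1 (-2.49), Lats2 (-1.75) and Axl (-1.60), and a part of cell makeup in these values was not tested.

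All 12 target genes passed the test, 9 falling and 3 rising, with a median log2 fold change of -0.68. Of all tested genes 55.4% passed, 28.4% falling and 27.0% rising. The matricellular gene Ccn1 (ENSMUSG00000028195.4, mm10 chromosome 3, 145646976 to 145649981) had 262, 346 and 349 CPM in PLD and 2138, 1502 and 1735 CPM in WT libraries. It was 5.61-fold lower in PLD (log2 fold change -2.49 ± 0.19 SE, edgeR adjusted p = 7.60e-05), the largest fall of the 35. Ccn2, which encodes connective tissue growth factor, had 163, 187 and 165 CPM in PLD and 516, 429 and 433 CPM in WT libraries, a fall of 1.42 ± 0.12 SE on the log2 scale. Both were far lower in every PLD library, but Ccn1 by more. Per kilobase of exon Ccn1 stood to Ccn2 as 2.28, 2.62 and 2.99 in PLD and as 5.88, 4.96 and 5.68 in WT libraries, a difference of -1.07 on the log2 scale. The exact permutation test gave its smallest possible value (p = 0.1, adjusted p = 0.167 over the 5 pairs). Ccn2 shares 23.2% of its exonic bases with Gm15270 on the opposite strand, which had 49 reads over all libraries, so its level per kilobase may be too low for the same reason.

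Ankrd1, whose nuclear ankyrin-repeat product is a common readout of YAP activity, had 128, 82.7 and 90.4 CPM in PLD and 333, 215 and 335 CPM in WT libraries. WT replicate 2 lay well below the other WT libraries, yet no PLD library reached the lowest of them, and Ankrd1 fell by 1.55 ± 0.23 SE on the log2 scale (edgeR adjusted p = 0.0011). Axl, a receptor tyrosine kinase gene, had 80.5, 119 and 130.1 CPM in PLD and 280.2, 383 and 340.0 CPM in WT libraries, and was 3.04-fold lower in PLD (edgeR adjusted p = 5.82e-04). Asap1, which encodes a GTPase-activating protein of ARF proteins, had 43.9, 55.1 and 56.4 CPM in PLD and 124, 168 and 156 CPM in WT libraries, and fell by 1.53 ± 0.15 SE. For both genes the lowest library of each group was replicate 1. Smaller falls were measured for Arhgef17 (-0.71), the stress response gene Gadd45b (-0.65), the AMPK-related kinase gene Nuak2 (-0.54) and the transmembrane protein gene Crim1 (-0.40). Gadd45b had 369, 495 and 483 CPM in PLD and 749.99, 657 and 701 CPM in WT libraries. The Arhgef17 and Crim1 calls were lost after the length correction (edgeR adjusted p = 0.0544 and 0.0905), those of Arhgef17 and Nuak2 without WT replicate 3 (0.0518 and 0.0501), and that of Crim1 without any library other than PLD replicate 1 (0.0658 to 0.122).

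F3, Dock5 and Myof rose. F3, which encodes tissue factor, the cell surface starter of blood clotting (chromosome 3, 121723537 to 121735048), had 2126, 899 and 878 CPM in PLD and 705, 289 and 536 CPM in WT libraries. The groups did not overlap, and replicate 1 was the highest library in each. F3 rose by 1.35 ± 0.43 SE on the log2 scale (edgeR adjusted p = 0.0308). The call was lost without PLD replicate 1 (log2 fold change 0.81, adjusted p = 0.0687), WT replicate 2 (1.07, 0.0787) or WT replicate 3 (1.39, 0.0797). Dock5, a RAC exchange factor gene, had 71.8, 60.3 and 68.6 CPM in PLD and 32.2, 27.2 and 29.7 CPM in WT libraries, a rise of 1.17 ± 0.11 SE. Myof, which encodes the membrane repair protein myoferlin, had 452, 449 and 544 CPM in PLD and 238, 309 and 244 CPM in WT libraries, a rise of 0.87 ± 0.14 SE. In level per kilobase, Ccn1 ranked first of the 35 in WT (888 ± 159) and F3 in PLD (515 ± 283), where Ccn1 had 158 ± 24.5 and F3 in WT 202 ± 82.9 (CPM per kilobase, mean ± SD, n = 3 libraries each). Gadd45b was second in both groups.

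**Figure D4:**
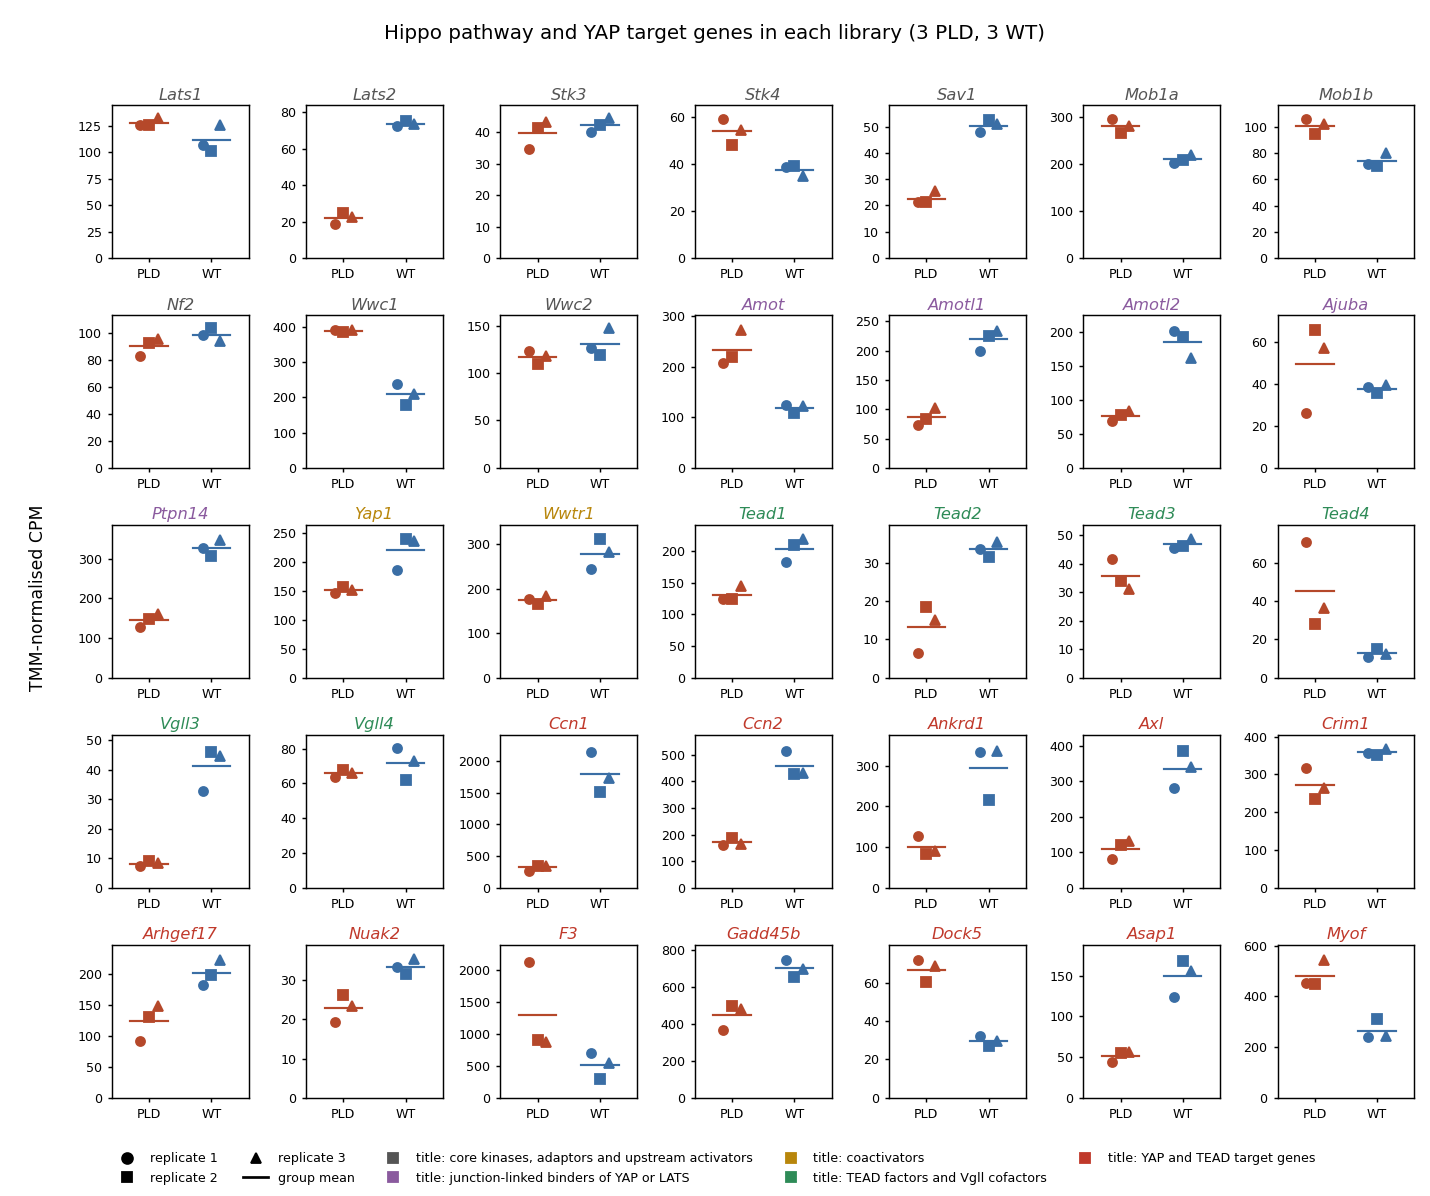
TMM-normalised CPM (vertical axes, each from 0) of the 35 genes, PLD on the left and WT on the right of each panel. Points are single libraries with the replicate number as the symbol, lines are group means, and title colours give the role. The groups do not overlap for 29 of the 35 genes (66.2% of all tested genes), and PLD replicate 1 is the lowest PLD library for 21.

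Within the PLD group, replicate 1 was the lowest library for 21 of the 35 genes and the highest for 10, and replicate 3 was the lowest for 2 and the highest for 16. PLD replicate 1 also had the lowest summed endothelial (812 CPM) and fibroblast levels (2640.4 CPM) and the highest summed cholangiocyte marker level (52376 CPM). Without it 28 of the 29 calls remained in the same direction, F3 being lost, and Ajuba was added. With WT replicate 3 left out, 24 of the 29 remained, the smallest number for any library.

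Other genes of the pathway also went in both directions. Of 55 tested regulators outside that set, 17 rose, 11 fell and 27 did not pass, with a median log2 fold change of 0.18. The 4 with the smallest p were Map4k2, Taok2, Dchs1 and Crb3. The kinase gene Map4k2 had 27.1, 24.3 and 24.6 CPM in PLD and 74.9, 69.7 and 84.7 CPM in WT libraries. Taok2, another kinase gene, had a log2 fold change of -1.29 ± 0.10 SE and the atypical cadherin gene Dchs1 one of -3.00 ± 0.27 SE. Crb3, a gene of the apical polarity complex, had 136, 113 and 106 CPM in PLD and 38.5, 29.2 and 39.5 CPM in WT libraries, and rose by 1.72 ± 0.15 SE. Of 23 further YAP and TEAD targets 5 rose, 11 fell and 7 did not pass, with a median of -0.33. The falls of Cavin2 (-2.23), Dlc1 (-2.41) and Cdc42ep3 (-1.59) and the rise of Edn1 (0.89) had the smallest p. Cavin2 encodes a caveolar coat protein and Edn1 the peptide endothelin 1. The counts are given without a test of the lists, and 55.4% of all genes passed in these libraries.

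**Figure D5:**
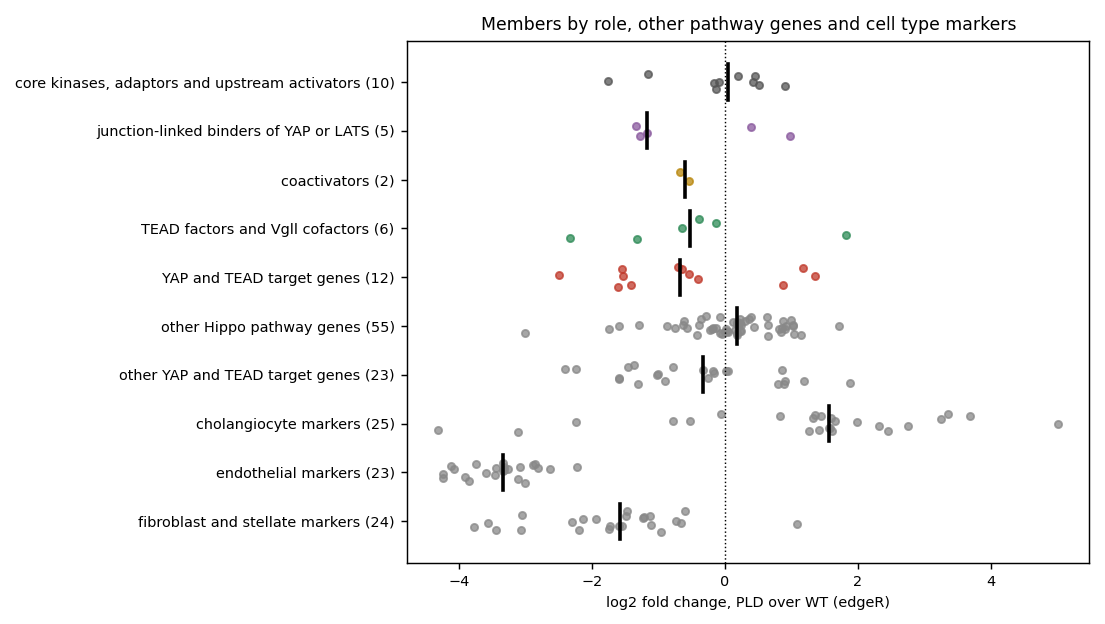
Log2 fold change, PLD over WT, of single genes (points) by role, for other pathway genes and for cell type markers (rows, with the number tested). Black bars are medians and the dotted line the median of all tested genes (0.01). The target gene median is -0.68, the cholangiocyte marker median 1.57 and the endothelial marker median -3.33.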

How the data were processed

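Each library's deposited table holds unnormalized read counts by gene. Per the file headers, the authors counted with featureCounts 1.6.0 against GENCODE vM25 on mm10. The command names no option for strand, paired ends or multi-mapping. Where exons of a gene and its antisense partner overlap, their reads therefore cannot be told apart. The submitters' processing notes list further tools: STAR 2.7.4a, SAMtools 1.12, DESeq2 1.26.0. Symbols came from GENCODE vM21 for 55141 of 55401 identifiers.

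Counts were tested with edgeR 4.0.16 in R 4.3.3: filterByExpr kept 15334 genes, TMM factors (0.922 to 1.04) scaled the libraries, and the quasi-likelihood test compared PLD with WT with no covariate (biological coefficient of variation 0.196). The SE is the log2 fold change divided by the square root of F. The functions were tested on simulated data. Replicates never agreed within sampling noise (chi-square per degree of freedom 9.72 to 63.9). The 35 genes and all lists were chosen with earlier results of these data known. The text names all 35; from the other lists it may name the 4 genes lowest in p, and it gives Epcam and Pecam1 for composition. Alternatives were RLE and upper-quartile factors, DESeq2 1.42.0, limma-voom (limma 3.58.1), a robust fit, no filter, a replicate block, a minimum of 1 CPM in 3 libraries, a centred loess correction for gene length (span 0.5) and leaving out each library.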

Additional observations from a re-analysis of the deposited data

How the results depend on the processing

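Of 525 recomputed log2 fold changes (35 genes, 15 alternatives), 500 kept direction and call, and 23 of the 29 called genes kept their call under every alternative. The exceptions were Crim1, Arhgef17, Nuak2, Tead3, Yap1 and F3. RLE and upper-quartile factors, DESeq2, limma-voom, both other filters, the robust fit and the replicate block each called the same 29 genes. The block called 9 higher and 20 lower. Deviations of same-numbered libraries correlated weakly (r = 0.16, 0.04 and 0.06), against -0.12 to 0.12 for libraries of different number. With 3 libraries a group, these values cannot settle whether the numbers pair the libraries. A block cannot move a difference of paralog ratios here, since each number has 1 library in each group. The cause of the changes below was not tested. The length correction moved the median of the 35 to -0.31, the other Hippo genes to 26 higher with a median of 0.30 and the other targets to 3 higher. It called Lats1 higher (0.35) and turned the sign of Stk3 (0.0199), Nf2 (0.0113) and Wwc2 (0.18). No filter on low counts gave a median of -0.54 for the other targets. Leaving out single libraries gave 8 to 9 members higher and 16 to 20 lower, 3 to 6 other targets higher with a median of -0.49 to -0.29, 1 to 2 macrophage markers higher, Stk3 from -0.14 to 0.0036 and the Mob1a over Mob1b difference from -0.0552 to 0.0042. With 3 libraries a group, exact permutation tests of single ratios cannot pass the threshold.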
